A study of Mus musculus with 24 samples.

Results

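The levels of 10 inflammatory mediators are described here in differentiating brite adipocytes, namely the chemokines Ccl2, Ccl5, Ccl7, Cxcl1, Cxcl5, Cxcl10 and Cxcl12 and the cytokines Il6, Csf1 and Lif. They were chosen by name and make up 10 of the 52089 gene symbols and 10 of the 168326 entries of the deposited table. Each gene was represented by its RefSeq messenger RNA entry with the highest mean RPKM (reads scaled by transcript length and by the mapped reads of the library) over 24 libraries. The cells were primary preadipocytes from the stromal vascular fraction of inguinal white adipose tissue of 129SvEv mice, differentiated with rosiglitazone into brite adipocytes, which are white fat cells that take on features of brown fat. They were reverse transfected at 50 nM with an LNA gapmer, a modified DNA-like oligonucleotide that pairs with its target RNA and leads to its cleavage. The gapmer was either directed at the long noncoding RNA Ctcflos (knockdown, KD) or was a non-targeting control (NC), and RNA was harvested 24 h or 72 h later. Both groups of a time point shared the differentiation medium and the transfection reagent, and the study's methods add that cells of the 72 h groups received fresh medium after the first 24 h. No untransfected cells were analysed here. Each of the 4 groups held 6 libraries.

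Chemokines are small secreted proteins that direct the migration of leukocytes through receptors on these cells. CC chemokines such as Ccl2 mainly attract monocytes and lymphocytes, Cxcl1 and Cxcl5 attract neutrophils, Cxcl10 attracts T cells and is induced by interferons, and Cxcl12 retains haematopoietic and progenitor cells in their niche. Il6 and Lif signal through the shared receptor subunit Il6st to JAK kinases and Stat3, and Csf1 sustains macrophages through Csf1r. In adipose tissue, preadipocytes and other stromal cells produce many of these factors, and NF-kB is a common activator of their genes.

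Upstream sequence is shown for the 4 genes on which the results below turn, Cxcl12 and Il6 for the knockdown, Cxcl10 for the time course and Cxcl1 as the other member with a fitted difference above 1 at both times. The RefSeq promoter table (GRCm38.p6) held 6 of the 10 members, Cxcl1, Cxcl10, Cxcl12, Il6, Csf1 and Lif. The 250 bases before the annotated start are printed from 5′ to 3′ on the strand of the gene, for Cxcl12 chr6:117168285-117168534 (plus), Il6 chr5:30012864-30013113 (plus), Cxcl10 chr5:92348890-92349139 (minus) and Cxcl1 chr5:90890995-90891244 (plus). Capitals mark every match, on either strand, to an NF-kB core (GGGNNNNNCC), an AP-1 site (TGANTCA), an ISRE-like interferon element (GAAANNGAAA), a STAT site (TTCNNNGAA) or a TATA box (TATAAA).
Cxcl12: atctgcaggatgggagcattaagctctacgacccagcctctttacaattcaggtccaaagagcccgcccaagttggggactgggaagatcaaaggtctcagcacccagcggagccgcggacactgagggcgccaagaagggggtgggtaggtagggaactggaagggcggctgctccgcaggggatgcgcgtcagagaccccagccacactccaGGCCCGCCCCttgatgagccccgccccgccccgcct
Il6: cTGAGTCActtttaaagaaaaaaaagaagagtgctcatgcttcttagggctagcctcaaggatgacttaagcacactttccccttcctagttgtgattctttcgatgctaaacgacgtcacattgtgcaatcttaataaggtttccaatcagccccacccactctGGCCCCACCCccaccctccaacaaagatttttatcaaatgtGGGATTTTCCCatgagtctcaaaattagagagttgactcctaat
Cxcl10: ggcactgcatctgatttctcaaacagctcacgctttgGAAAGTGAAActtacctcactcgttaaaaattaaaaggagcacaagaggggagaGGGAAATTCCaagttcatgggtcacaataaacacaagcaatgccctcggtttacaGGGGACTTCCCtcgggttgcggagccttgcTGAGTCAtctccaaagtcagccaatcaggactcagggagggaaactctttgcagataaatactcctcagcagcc
Cxcl1: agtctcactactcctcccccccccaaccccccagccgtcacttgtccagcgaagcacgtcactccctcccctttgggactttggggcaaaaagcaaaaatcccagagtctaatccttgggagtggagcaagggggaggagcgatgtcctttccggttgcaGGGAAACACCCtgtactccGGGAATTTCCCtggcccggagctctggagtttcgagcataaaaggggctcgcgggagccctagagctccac
NF-kB core letters formed 1 stretch in Cxcl12 and 2 stretches each in Il6, Cxcl10 and Cxcl1, where matches of both strands can overlap. They occurred in all 6 member promoters found and in 50.8% of the 32851 promoters of the table (250 bases before to 50 after the start). The ISRE-like letters were found in Cxcl10 alone among the 6, at position -213, and in 3.4% of all promoters. AP-1 letters stood in Cxcl10 at position -74, in Il6 at -249 and in Lif at -228, and in 7.8% of all promoters. STAT and TATA letters, present in 8.3% and 13.6% of promoters, had no match in these 6 windows.

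Recovered totals ranged from 1391833 (KD 24 h replicate 6) to 5926379 mapped reads per library (NC 72 h replicate 6). The latter total may be overstated, and the next highest was 5423844 (NC 24 h replicate 2). NC 72 h replicates 2 and 3 differed by less than the sampling noise. They were counted as 1 sample, which gave n = 5 for NC 72 h. The targeted RNA was scarce. In KD 24 h libraries Ctcflos (NR_040321) lay between 0 and 0.620 RPKM with a median of 0.0923, and in NC 24 h libraries between 0.178 and 1.38 with a median of 0.730. At 72 h the KD samples lay between 0 and 0.517 RPKM and the NC samples between 0.886 and 1.75, so that the groups overlapped at 24 h and did not overlap at 72 h. A further pattern ran across the groups. With the 10 members left out, 8 libraries formed a smaller cluster (KD 24 h replicates 3 and 4, NC 24 h replicates 5 and 6, KD 72 h replicates 5 and 6, NC 72 h replicates 4 and 5) and the other 16 a larger one. The clusters were defined from the data and carry no label, and each group held 2 libraries of the smaller one. Where a member's call differed within a cluster, the values of the separate fits are given beside it.

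The members spanned a wide range of levels. Ccl2 and Ccl7 were the most abundant in every group, and Lif was the least abundant in every group. In NC 24 h the mean RPKM was 924 for Ccl2, 831 for Ccl7, 345 for Cxcl10, 50.1 for Ccl5, 49.1 for Csf1, 30.2 for Cxcl12, 9.75 for Cxcl1, 3.20 for Cxcl5, 2.86 for Il6 and 0.343 for Lif. The means of Ccl2 and Ccl7 lay within their spread between samples (SD 324 and 242, n = 6). So did those of Ccl5 and Csf1 (SD 15.9 and 7.15) and of Cxcl5 and Il6 (SD 1.77 and 1.36). Differences between genes were not tested. Ccl5 was above Csf1 in the larger cluster of NC 24 h (54.0 to 71.7 against 39.5 to 48.2 RPKM). It was below Csf1 in the smaller (29.5 to 33.4 against 53.7 to 60.2). Reads came from the 3′ ends of transcripts while RPKM divides by the whole length, so that levels of long transcripts such as Csf1 and Lif are understated against short ones.

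**Figure D1:**
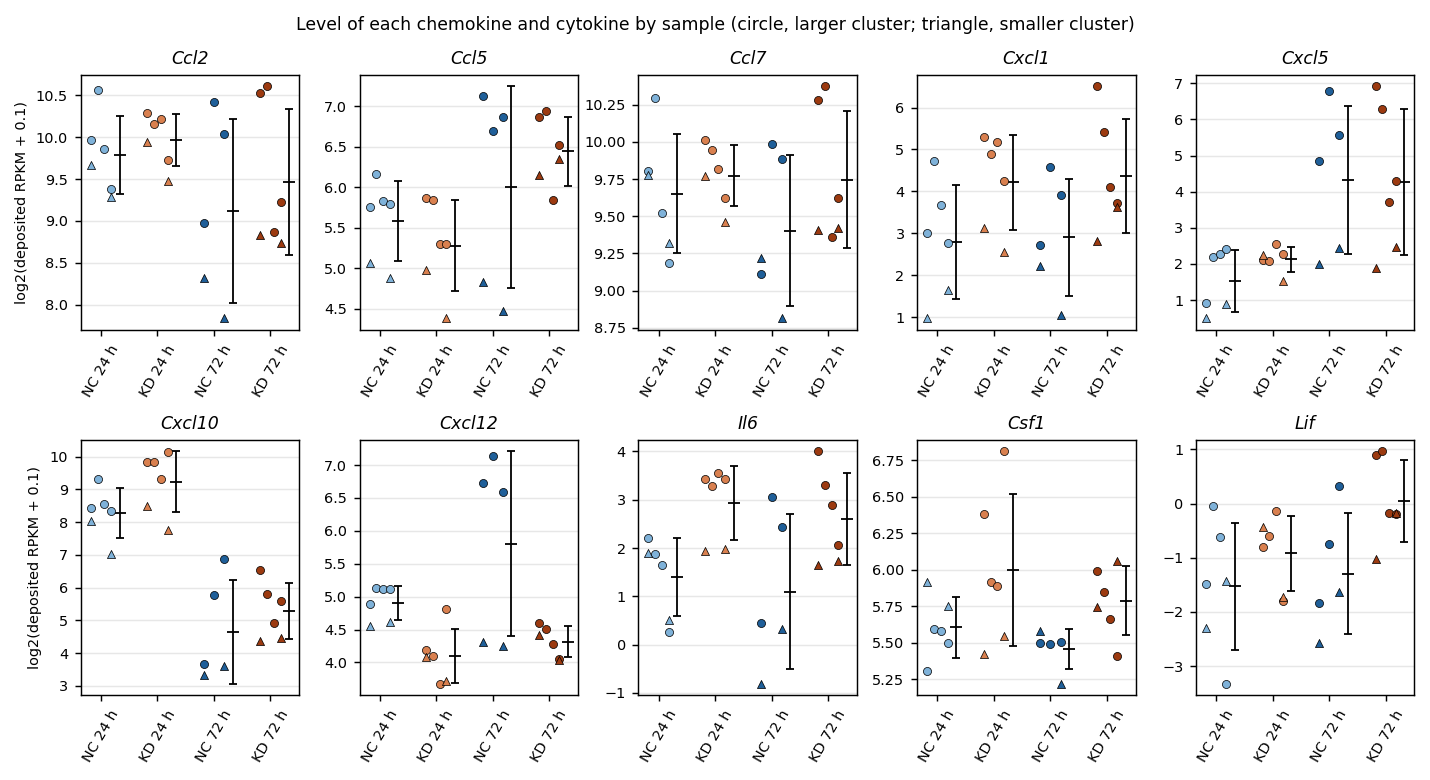
Level of the 10 genes in each sample, as log2(deposited RPKM + 0.1) on the y axis against the group on the x axis; circles are samples of the larger cluster, triangles of the smaller, and bars give the mean ± SD of the log values. Cxcl10 is lower in every NC 72 h sample than in any NC 24 h sample, and Cxcl12 is high in the 3 NC 72 h samples of the larger cluster (95.9 to 141 RPKM).

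At 24 h the comparison of KD with NC asks which transcripts moved soon after the loss of Ctcflos. Il6 was higher and Cxcl12 was lower in KD, and no other member passed the threshold. Of the 9 members tested, 1 was called higher and 1 lower, against 22.7% of all 52006 entries tested, so that the share of members called was close to that of all entries. The median log2 difference was 0.33 over the 9 members and -0.01 over all entries. Calls throughout rest on limma with Benjamini-Hochberg adjustment over all entries, at an adjusted p under 0.05.

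Cxcl12, the homing chemokine bound by Cxcr4, had 18.1, 17.1, 16.9, 13.1, 12.7 and 27.9 RPKM in KD replicates 1 to 6 at 24 h. The NC 24 h replicates had 29.4, 35.0, 34.7, 34.5, 23.5 and 24.3 RPKM. Of the KD samples, 5 of 6 lay below every NC sample, and only KD replicate 6, the shallowest library with 73 Cxcl12 reads, reached into the NC range. Whether its depth had a part was not tested. The fitted log2 difference was -0.86 ± 0.17 (SE, limma, adjusted p = 0.0033), or 1.82-fold lower. It was -0.98 ± 0.19 in the larger cluster alone (adjusted p = 0.0061) and -0.66 ± 0.17 in the smaller alone (adjusted p = 0.08), and the difference between clusters was not called (adjusted p = 0.71; 0% of entries were called for such a difference at 24 h, 0 of 52006).

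Il6, the cytokine that signals through Il6ra and Il6st, was measured with few reads, 2 to 67 per sample. KD 24 h samples had 10.7, 9.62, 3.72, 3.86, 11.6 and 10.6 RPKM. NC 24 h samples had 4.51, 3.56, 3.04, 1.10, 3.63 and 1.33 RPKM. In all, 4 KD samples lay above every NC sample, whereas KD replicates 3 and 4, both of the smaller cluster, lay within the NC range. The log2 difference was 1.48 ± 0.38 (SE, limma, adjusted p = 0.013), or 2.78-fold higher, with 1.81 ± 0.37 in the larger cluster (adjusted p = 0.007) and 0.77 ± 0.44 in the smaller (adjusted p = 0.36). The difference between clusters was 1.04 ± 0.68 and was not called (limma, adjusted p = 0.55).

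The neutrophil attractant Cxcl1 and the interferon-induced chemokine Cxcl10 leaned the same way without a call. Cxcl1 ranged from 5.79 to 39.2 RPKM (median 24.1) in KD 24 h and from 1.86 to 26.4 (median 7.32) in NC 24 h. Cxcl10 ranged from 218 to 1136 RPKM (median 771) in KD 24 h and from 129 to 643 (median 332) in NC 24 h. In both genes the groups overlapped, and the 2 lowest samples of each group belonged to the smaller cluster. The log2 differences were 1.36 ± 0.58 for Cxcl1 (SE, limma, adjusted p = 0.10) and 0.90 ± 0.38 for Cxcl10 (adjusted p = 0.098). With the cluster as a covariate both passed the threshold, at 1.36 ± 0.31 and 0.90 ± 0.21 (limma, adjusted p = 0.0058 and 0.0073). Each 24 h group held 2 samples of the smaller cluster, so the estimates had to stay the same. The clusters came from these same libraries, and 27.5% of all entries were called in this fit, against 22.7% without the covariate. Fits of either cluster alone held 4 samples per group in the larger and 2 in the smaller, with 25.1% and 2.95% of all entries called. They use the same libraries and add no independent support. Cxcl1 was 1.25 ± 0.40 in the larger cluster (limma, adjusted p = 0.044) and 1.55 ± 0.34 in the smaller (adjusted p = 0.048). Cxcl10 was 1.02 ± 0.22 (adjusted p = 0.0083) and 0.63 ± 0.30 (adjusted p = 0.27). For neither gene was the difference between clusters called (limma, adjusted p = 0.88 for Cxcl1 and 0.75 for Cxcl10).

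The monocyte attractants Ccl2 and Ccl7, the T cell attractant Ccl5, Cxcl5 and Csf1 were not called at 24 h. Their log2 differences were 0.12 ± 0.19 for Ccl2, 0.07 ± 0.16 for Ccl7, -0.36 ± 0.25 for Ccl5, 0.55 ± 0.33 for Cxcl5 and 0.33 ± 0.18 for Csf1 (SE, limma, adjusted p = 0.19 to 0.80). Csf1 was 0.64 ± 0.18 in the larger cluster alone (adjusted p = 0.023) and -0.33 ± 0.12 in the smaller (adjusted p = 0.17), and the difference between clusters was not called (adjusted p = 0.28). Lif, with 0 to 18 reads in the 24 h samples, did not reach the filter, and its means of 0.480 ± 0.248 RPKM in KD and 0.343 ± 0.320 in NC (SD, n = 6 each) gave p = 0.43 in a two-sided exact permutation test, 1 of 2 such tests.

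**Figure D2:**
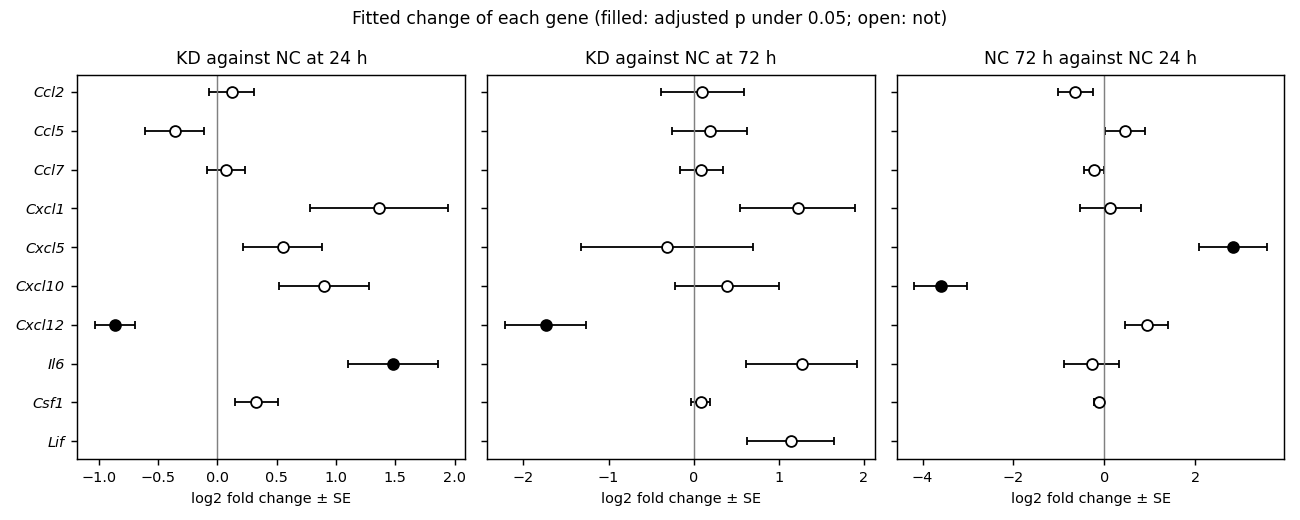
Fitted log2 fold change ± SE (x axis) of the 10 genes (y axis) in the 3 comparisons; filled symbols passed an adjusted p under 0.05 and open symbols did not. Cxcl12 lies below 0 in KD at both times (-0.86 and -1.74), and Cxcl10 has the lowest value over time (-3.60).

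At 72 h Cxcl12 was the only member called, and it was lower in KD. Of the 10 members tested, 1 was called against 22.3% of 54447 entries, and the median log2 difference was 0.14 over the members and 0.01 over all entries. Over all entries 5614 were called higher and 6545 lower. On the deposited scale without rescaling the split was 13166 higher and 3102 lower, with a median log2 difference of 0.25, so that differences at 72 h are relative to the scaled median.

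Cxcl12 had 24.1, 22.6, 19.3, 16.5, 21.2 and 16.3 RPKM in KD 72 h replicates 1 to 6. In NC 72 h it had 106 in replicate 1, 141 in the mean of replicates 2 and 3, 19.7 in replicate 4, 19.0 in replicate 5 and 95.9 in replicate 6. The KD samples lay close together, and the NC samples split into 3 of the larger cluster far above every KD sample and 2 of the smaller cluster inside the KD range. The log2 difference was -1.74 ± 0.48 (SE, limma, adjusted p = 0.018), or 3.34-fold lower. Without NC replicate 1 it was -1.51 and the call was lost (adjusted p = 0.051).

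The 72 h difference in Cxcl12 was not the same in both clusters. It was -2.67 ± 0.15 in the larger cluster (limma, adjusted p = 1.2e-06) and -0.38 ± 0.21 in the smaller (adjusted p = 0.29). The difference between them, tested as a product term added after the data were seen, was -2.27 ± 0.27 (adjusted p = 0.00016), and such a difference was called for 5.84% of entries. Ccl5 also differed between clusters at 72 h (-1.82 ± 0.34, adjusted p = 0.005). KD 72 h samples of Ccl5 had 57.4 to 123 RPKM in the larger and 70.9 to 81.2 in the smaller cluster, and NC 72 h samples had 104 to 140.3 and 22.1 to 28.5. Ccl5 in KD was thus above NC in the smaller cluster (1.27 ± 0.17, adjusted p = 0.0018), while the value in the larger was -0.57 ± 0.22 (adjusted p = 0.076).

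**Figure D3:**
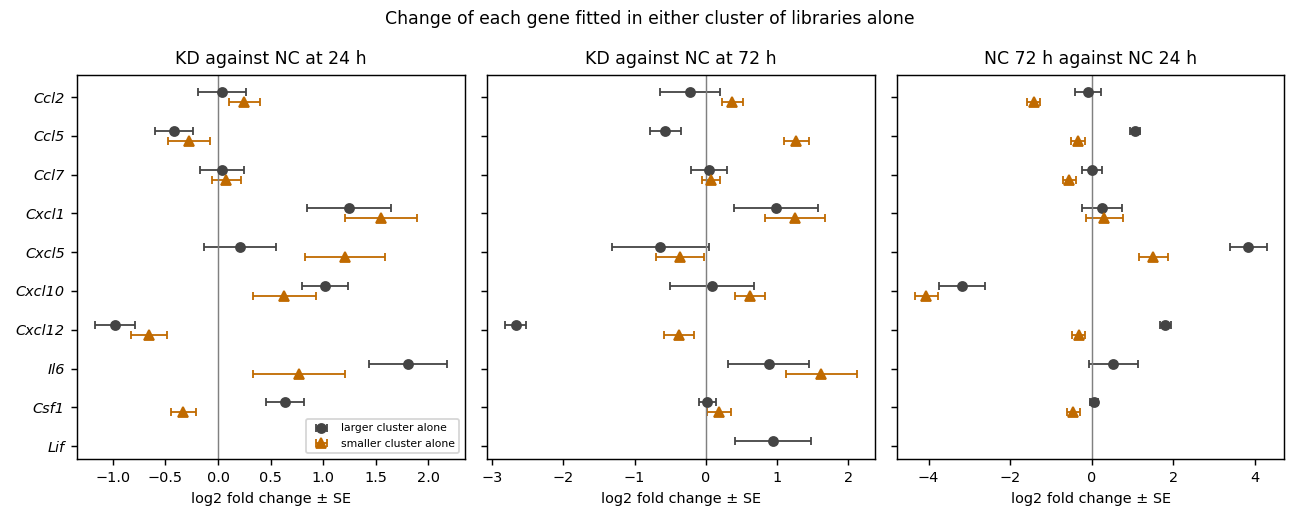
Log2 fold change ± SE (x axis) of the 10 genes (y axis) fitted in the larger cluster (circles) or the smaller cluster (triangles) alone, for the 3 comparisons; genes under the filter in a cluster have no symbol. Cxcl12 at 72 h lies at -2.67 in the larger and -0.38 in the smaller cluster.

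The other members were not called at 72 h. Il6 ranged from 3.03 to 15.9 RPKM in KD and from 0.472 to 8.25 in NC, with a log2 difference of 1.27 ± 0.65 (SE, limma, adjusted p = 0.18). Cxcl1 ranged from 6.90 to 91.2 RPKM in KD and from 1.98 to 23.8 in NC, with 1.22 ± 0.68 (adjusted p = 0.22). Lif ranged from 0.394 to 1.85 RPKM in KD and from 0.0675 to 1.16 in NC, with 1.14 ± 0.51 (adjusted p = 0.13). The groups overlapped in each of these genes. Lif reached the filter mainly through KD samples, where it was higher, so its fit rests in part on the level of that group. Log2 differences of Ccl2, Ccl5, Ccl7, Cxcl5, Cxcl10 and Csf1 lay between -0.31 and 0.39 (adjusted p = 0.63 to 0.91). Within the KD 72 h group, replicate 1 was among the 2 highest samples for 10 of 10 members and replicate 2 for 9 of 10. Ccl2 had 1471 and 1561 RPKM in these 2 samples and 425 to 600.2 in the other 4.

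In the control arm, the comparison of NC 72 h with NC 24 h follows the members over time without knockdown. Cxcl10 was lower and Cxcl5 was higher at 72 h. Of 9 members tested, 1 was called in each direction, against 9.12% of 52836 entries, and the median log2 difference was -0.12 over the members and 0.01 over all entries. These samples also serve as the controls of the knockdown comparisons, so the values are not independent of those above.

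Cxcl10 had 344, 643, 372, 320.3, 259.7 and 129 RPKM in NC 24 h replicates 1 to 6. At 72 h it had 12.5 in replicate 1, 54.5 in the mean of replicates 2 and 3, 10 in replicate 4, 12.2 in replicate 5 and 117 in replicate 6. Every 72 h sample lay below every 24 h sample. The log2 difference was -3.60 ± 0.58 (SE, limma, adjusted p = 0.0011), or 12.1-fold lower, and it was called in the larger (-3.18 ± 0.57, adjusted p = 0.0049) and in the smaller cluster alone (-4.06 ± 0.28, adjusted p = 1.9e-04).

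Cxcl5 had 1.78, 4.46, 4.71, 5.20, 1.31 and 1.75 RPKM in NC 24 h. At 72 h it had 28.7, 111 and 46.9 in the samples of the larger cluster and 3.88 and 5.32 in those of the smaller. The larger-cluster samples stood above all 24 h samples, while those of the smaller cluster lay within or just above the upper end of the 24 h range. The log2 difference was 2.83 ± 0.74 (SE, limma, adjusted p = 0.026), or 7.10-fold higher. It was 3.84 ± 0.45 in the larger cluster alone (adjusted p = 3.4e-04) and 1.51 ± 0.35 in the smaller alone, where the call was lost (adjusted p = 0.058), and the difference between clusters was not called (adjusted p = 0.28). The call was also lost without NC 24 h replicate 1, 5 or 6 and without NC 72 h replicate 1, the mean of 2 and 3, or replicate 6 (adjusted p = 0.052 to 0.072), with no filter (0.061) and with voom on recovered reads (0.094). Without the mean of NC 72 h replicates 2 and 3 the log2 difference was 2.19.

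Cxcl12 over time gave 0.93 ± 0.47 (SE, limma, adjusted p = 0.26), with 1.80 ± 0.13 in the larger cluster (adjusted p = 1.7e-05) and -0.32 ± 0.16 in the smaller (adjusted p = 0.35). With the cluster, drawn from these same libraries, as a covariate it was 1.02 ± 0.29 and was called (adjusted p = 0.029). In that fit 13.7% of all entries were called. The difference between clusters was 2.11 ± 0.21 (adjusted p = 0.0019), a difference called for 0.189% of entries. The same term was 1.38 ± 0.21 for Ccl5 (adjusted p = 0.023), which was called in the larger cluster alone (1.06 ± 0.12, adjusted p = 3.0e-04) and not in the smaller (-0.34 ± 0.17, adjusted p = 0.35). Over all samples Ccl2, Ccl7, Cxcl1, Il6, Ccl5 and Csf1 were not called over time (log2 -0.64 to 0.45, adjusted p = 0.37 to 0.94). Ccl2, at -0.64 over all samples, was called in the smaller cluster alone (-1.42 ± 0.16, adjusted p = 0.0024) and not in the larger (-0.09 ± 0.32, adjusted p = 0.92), and the difference between clusters was not called (adjusted p = 0.43). Lif gave p = 0.72 in the other two-sided exact permutation test.

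The change of the knockdown effect between 24 h and 72 h was tested as an interaction. None of the 10 members was called by limma, 0 of 10 also had an unadjusted p under 0.05, and 0.2% of 59413 entries were called. The term was -0.87 ± 0.53 for Cxcl12 (adjusted p = 0.54) and -0.19 ± 0.80 for Il6 (adjusted p = 0.95). In the larger cluster alone it was called for Cxcl12 (-1.70 ± 0.26, adjusted p = 0.0043), and in the smaller alone for Ccl5 (1.54 ± 0.28, adjusted p = 0.012).

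Counts in the gene lists that follow are small and stand beside the shares called over all entries, 22.7% at 24 h, 22.3% at 72 h and 9.12% over time. Receptors of the members were mostly low. Of 21 receptor and decoy genes, 10 were tested at 24 h, with 2 higher and 2 lower in KD. Csf1r, the receptor of Csf1, had 3.39 ± 1.01 RPKM in KD and 1.33 ± 0.402 in NC (SD, n = 6 each) and was higher by a log2 of 1.22 ± 0.27 (SE, limma, adjusted p = 0.0061). Csf1r is also a macrophage marker, and Lyz2, the lysozyme of macrophages, had the opposite sign. Lyz2 had 4.54 ± 5.44 RPKM in KD and 11.2 ± 7.79 in NC at 24 h (-2.41 ± 0.96, adjusted p = 0.083), and 1.37 ± 1.63 in KD (n = 6) and 12.9 ± 8.84 in NC (n = 5) at 72 h, where it was lower in KD (-3.68 ± 0.59, limma, adjusted p = 6.6e-04). Tnfrsf1b, a receptor of tumour necrosis factor, was also higher at 24 h (1.64 ± 0.43, limma, adjusted p = 0.015). It had 1.57 ± 0.874 RPKM in KD and 0.386 ± 0.174 in NC (SD, n = 6 each). Tnfrsf1b fell under the filter in the comparison of NC over time, so it was tested mainly through the KD group, where it was high. The cytokine receptors Lifr (-1.18 ± 0.22, adjusted p = 0.0027) and Osmr (-0.93 ± 0.18, adjusted p = 0.0028) were lower. At 72 h, 1 was higher and 2 were lower, namely Csf1r (1.23 ± 0.25, adjusted p = 0.0031), Osmr (-0.67 ± 0.21, adjusted p = 0.033) and the interleukin 1 receptor Il1r1 (-0.65 ± 0.18, adjusted p = 0.017). Over time in NC, 5 of 9 were higher and 0 lower, led by Il1rl1 (1.03), Osmr (0.87) and Csf1r (0.81).

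Among 25 other chemokines, 1 of 12 tested was higher and 1 lower in KD at 24 h, the B cell attractant Cxcl13 (0.90 ± 0.29, limma, adjusted p = 0.039) and Cxcl14 (-0.54 ± 0.18, adjusted p = 0.046). At 72 h 2 of 10 were lower, Cxcl16 (-0.91 ± 0.18, adjusted p = 0.003) and Cxcl14 (-0.71 ± 0.16, adjusted p = 0.0054). Over time in NC 4 of 13 rose and 3 fell. Ccl8 (2.08) and the eosinophil attractant Ccl11 (1.33) rose most, and Cxcl13 (-2.01), Ccl4 (-1.98) and the interferon-induced Cxcl9 (-1.85) fell most on the log2 scale. Of 25 other cytokines, the interleukin 1 antagonist Il1rn was lower in KD at 24 h (-1.47 ± 0.43, adjusted p = 0.024) and Spp1, osteopontin, was higher in KD at 72 h (1.00 ± 0.15, adjusted p = 4.8e-04), each 1 of 6 tested. Over time Spp1 (2.01) and Mif (0.77) rose and Tslp (-1.38) fell, of 5 tested.

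In the NF-kB pathway 3 of 19 genes were higher and 1 lower in KD at 24 h, with a list median of 0.22, and these 4 of 19 were close to the 22.7% called over all entries. Nfkbiz, a cofactor of NF-kB (1.32 ± 0.35, limma, adjusted p = 0.015), the subunit Rela (1.00 ± 0.26, adjusted p = 0.014) and the RNA sensor Tlr3 (0.85 ± 0.24, adjusted p = 0.023) were higher, and the kinase Irak1 was lower (-1.48 ± 0.23, adjusted p = 8.2e-04). At 72 h 2 of 20 were higher, Myd88 (0.57) and Rela (0.53), and Irak1 was again lower (-1.47). In the JAK and STAT3 pathway the kinase Jak1 was lower in KD at 24 h (-0.67 ± 0.19, adjusted p = 0.02). At 72 h Jak1 (-1.07) and the feedback inhibitor Socs2 (-0.83) were lower and Pias3 (0.71) was higher.

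The interferon response list moved over time. In all, 10 of 12 genes were lower in NC at 72 h than at 24 h and 0 were higher, with a list median of -1.91, and the antiviral genes Rsad2 (-3.76 ± 0.53, limma, adjusted p = 4.9e-04), Ifit3 (-3.52 ± 0.47, adjusted p = 3.0e-04) and Ifit1 (-3.03 ± 0.45, adjusted p = 6.4e-04) fell most. In KD 2 of 12 were higher at 24 h, Rsad2 (1.49) and Irf9 (0.66). At 72 h 5 were higher, among them Rsad2 (1.5), Isg15 (1.39) and Irf7 (1.05), and Irf3 was lower (-0.73). The genes most alike to Cxcl10 across the 23 samples were Iigp1, Cmpk2 and Tlr3, with Pearson r of 0.97 each among 12701 genes compared. The nearest genes were Col3a1 and Sod2 for Cxcl12 (r = 0.93 each), Pdpn for Cxcl5 (0.93), Cfb for Ccl5 (0.90), Ch25h for Il6 (0.88), Cxcl11 for Ccl2 (0.88) and Ccl7 (0.77), Tnfaip3 for Cxcl1 (0.86), Rad21 for Csf1 (0.89) and Tlr2 for Lif (0.81). These values describe samples that share group, cluster and depth.

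**Figure D4:**
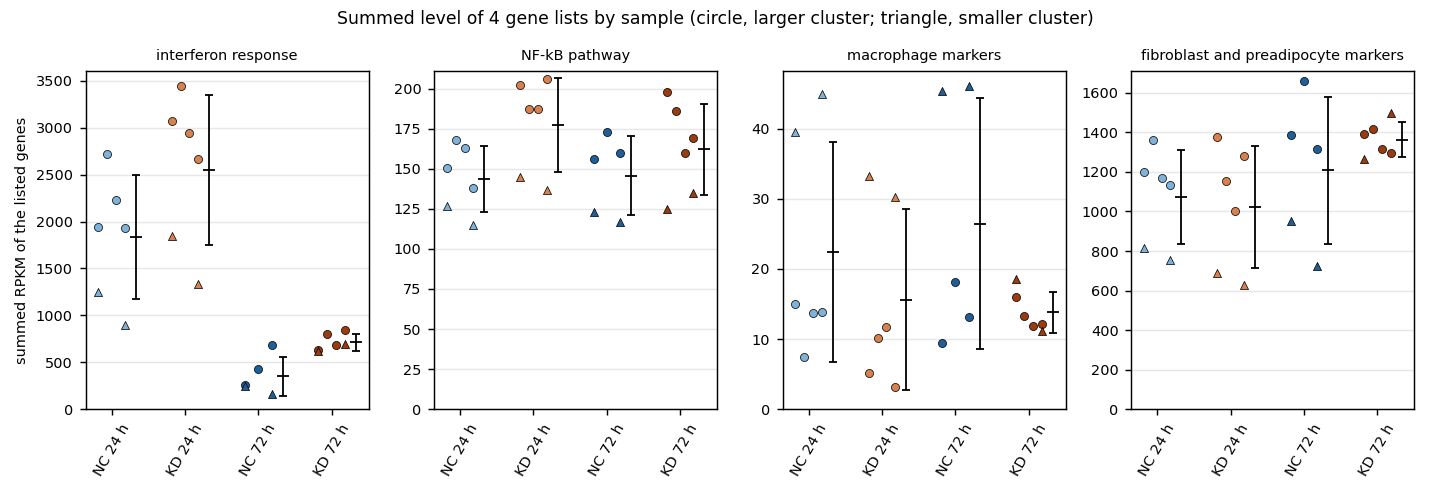
Summed deposited RPKM of the genes of 4 lists (y axis, from 0) in each sample by group (x axis); circles are samples of the larger cluster, triangles of the smaller, and bars give the mean ± SD. Interferon response sums lie at or above 900.3 in the 24 h samples and at or below 844 in the 72 h samples, and in 3 of the 4 groups both samples of the smaller cluster have macrophage marker sums above every sample of the larger, while in KD 72 h 1 of 2 does (18.5, against at most 16.0).

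Markers of other cells were measured beside these results. All 8 adipocyte markers passed the filter, and some moved with the knockdown. At 24 h 3 of 8 were lower in KD and 0 higher, Adipoq (-0.55), Pparg (-0.44) and Lipe (-0.41). At 72 h 4 of 8 were lower and 0 higher, the adipokine Adipoq (-0.96 ± 0.15, limma, adjusted p = 6.6e-04), the lipase Pnpla2 (-0.71), the fatty acid carrier Fabp4 (-0.58) and Lpl (-0.48). The 8 markers summed to 36623 to 54854 RPKM in KD and 48188 to 51667 in NC at 24 h. At 72 h the sums in the larger cluster were 28464 to 30345 in KD and 41624 to 44661 in NC, and in the smaller 41248 to 42205 in KD and 34998 to 38056 in NC. By these sums KD lay below NC in the larger cluster and above NC in the smaller. The sums are on the deposited scale, where the median log2 difference at 72 h was 0.25, and were not tested. Most of each sum was Fabp4, with means of 28399.8 RPKM in KD 72 h and 35283 in NC 72 h. The deposited 72 h means of Cidec (2365 in KD, 1849 in NC) and Pparg (107 and 102) were not lower in KD. After scaling, the log2 differences were 0.11 ± 0.12 for Cidec and -0.18 ± 0.09 for Pparg, neither called (limma, adjusted p = 0.56 and 0.19). All 8 lymphocyte markers were at 0 in every sample. The 14 macrophage markers in the table, of which 0 were at 0 in every sample, summed to 3.15 to 18.2 RPKM in the larger cluster of the 4 groups. In the smaller cluster they summed to 30.2 to 33.2 in KD 24 h, 39.5 to 45.0 in NC 24 h, 11.1 to 18.5 in KD 72 h and 45.3 to 46.1 in NC 72 h. Of the 14, 3 passed the filter in each comparison of KD with NC. Lyz2 alone averaged 11.2 RPKM in NC 24 h and 12.9 in NC 72 h, and the sums without it were not tested. The leukocyte marker Ptprc did not exceed 0.319 RPKM. The summed RPKM of fibroblast and preadipocyte markers was lower in the smaller cluster at 24 h and in NC 72 h. In NC 72 h the sums were 724 to 953 against 1317 to 1661 RPKM, and Cxcl12 was lowest in the same samples. Ly6a was the largest part of the sum, with 658 ± 225 RPKM in NC 24 h. Col3a1 (248 ± 15.5) and Col1a1 (126 ± 8.68) varied little in NC 24 h (SD, n = 6). In NC 72 h the spread of both collagens was larger, at 339 ± 119 for Col3a1 and 199 ± 42.0 for Col1a1, with 609.8 ± 215 for Ly6a (SD, n = 5). The part of all these markers in the results was not tested. In bulk samples fewer cells of a type and less RNA per cell cannot be told apart.

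Other entries of the same genes stood beside those used. The second RefSeq form of Cxcl12, NM_013655, had 1.51 ± 0.928 RPKM in KD 24 h, 2.17 ± 0.725 in NC 24 h, 4.03 ± 1.51 in KD 72 h and 6.86 ± 5.60 in NC 72 h (SD, n = 6, 6, 6 and 5), a small part of the level of NM_021704 (76.3 ± 54.7 in NC 72 h). Entries of 1 gene can share reads.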

How the data were processed

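RNA of 24 libraries was profiled by bulk RNA barcoding and sequencing, with barcoded oligo-dT primers that read transcript 3′ ends. The authors mapped reads with the Genomatix suite and deposited RPKM for 168326 overlapping RefSeq, Ensembl and GenBank entries. The build and the handling of strand for these libraries were not given in the sources used here. The members and all gene lists were chosen with earlier results of these data known. Groups followed the sample titles, and nothing in the labels says that replicates came from separate cultures, so p-values measure the spread between these samples. The labels do not say which gapmer was used. The paper describes its transcriptome replicates as biological. Its heat maps of 24 h and 72 h expression are for the gapmer against the isoform Ctcflos tr1.

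Whole reads were recovered from the steps of the RPKM for 99.93% of 128222 entries above 0 (tolerance 0.06 reads). The totals, median 4010001, set the precision and cover counting error only. NC 72 h replicate 6 rose in smaller steps (15.6% odd read numbers against 55.1% or more elsewhere), and its total may be overstated. NC 72 h replicates 2 and 3 differed by 0.341 of counting noise, against 2.006 for the next of 276 pairs, and were averaged.

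Entries with 10 reads in as many samples as the smaller group and 15 in all were scaled by a trimmed mean of log ratios and fitted as log2(RPKM + 0.1) with limma 3.58.1 in R 4.3.3 (eBayes with trend, two-sided, Benjamini-Hochberg). Fold changes on this scale understate those of low genes. Level values are deposited RPKM. The scripts were tested on simulated data. All members were named, with up to 3 called genes per direction, list and comparison, and the nearest genes by Pearson r. Part of the JAK and STAT3 pathway list is not reported here. Alternatives were other pseudocounts (1 and 0.01), filter, scalings, voom, 1 entry per gene, a replicate block, the clusters and left-out libraries. Same-numbered samples did not deviate together (mean r of -0.09 at 24 h and 0.02 at 72 h).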

Additional observations from a re-analysis of the deposited data

Results flagged for a closer look

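Within groups, 40 sets of samples (10 members in 4 groups) were searched for a sample far from the others, and 2 were found, where chance gives about 1 in 20. Cxcl12 in KD 24 h replicate 6 was 27.9 RPKM, while the other 5 samples lay between 12.7 and 18.1. This library was the shallowest, and it was among the 2 highest of its group for 4 of the 10 members. The part of depth was not tested. Csf1 in NC 72 h replicate 5 was 37.2 RPKM, while the other 4 samples lay between 44.8 and 47.7.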

How the results depend on the processing

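Directions of called members did not turn under any alternative run, and 87 of 104 counts of called members stayed within 1.5 times. The 104 include the interaction, where 0 calls stayed 0 in every run but the fits of either cluster alone. The share therefore overstates how steady the calls were. At 24 h the 2 calls became 4 with the cluster as a covariate, 5 in the larger cluster alone and 1 in the smaller alone, and lay between 2 and 4 with a library left out (4 without KD replicate 4, when Cxcl1 and Cxcl10 were also called). At 72 h the 1 call became 0 to 2 with a library left out (0 without NC replicate 1, and 2 without NC replicate 6, when Lif was also called at an adjusted p of 0.034). Without NC replicate 6 the NC samples held at most 0.499 RPKM of Lif. It then reached the filter through KD samples alone, so this call adds no support. Over time the 2 calls became 1 with no filter, 1 with voom and 4 in the larger cluster alone, and 1 to 2 with a library left out. The interaction had 0 calls, 1 in the larger and 1 in the smaller cluster alone. With a replicate block the counts were 2, 1, 2 and 0 in the same order, and no member call changed. The cause of these shifts was not tested. Entries called over all genes fell from 11821 to 1562 at 24 h and from 12159 to 5764 at 72 h in the smaller cluster alone. Over time they fell from 4818 to 1745 there and to 2898 with the replicate block. For the interaction 119 became 244 with a pseudocount of 1, 774 (744 higher, 30 lower, against 75 and 44) unscaled, 28 with the block, 404 with the cluster as a covariate, 860 and 1836 in the larger and smaller cluster, 182 with NC 72 h replicates 2 and 3 kept apart, and 53 to 175 with a library left out. With 1 entry per gene the counts were 2613, 2811, 1072 and 45. Il6 over time could not be fitted in the smaller cluster, where it fell under the filter. Low reads limit Il6 and Lif most.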
